A study of Mus musculus with 16 samples.

Results

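The distal part of mouse chromosome 7 carries a run of odorant receptor genes, and 48 of the 1080 receptors measured on the array were taken from it. They are the genes whose array symbol is Olfr with a number from 470 to 540, leaving out 7 numbers in that range (those of Olfr525, Olfr527, Olfr531, Olfr532, Olfr535, Olfr538 and Olfr539) and pseudogenes. Each had 1 probe set, and all 48 are annotated as protein coding. The measurements came from S100a5-tauGFP mice, in which a green fluorescent protein marks cells that use the S100a5 promoter. Nothing more on the allele stands in the labels. The mice, 24 males and females aged 7 to 12 weeks, were housed one to a chamber for 40 h in a stream of clean air (3.1 L per min). From 26 h on, they received 10 s pulses every 20 min, either of the ketone 2-hexanone (odor) or of filtered air (vehicle). Olfactory mucosa of 3 mice was combined into a pool, and GFP+ and GFP- cells were sorted from each pool. The 4 groups were therefore odor GFP+, odor GFP-, vehicle GFP+ and vehicle GFP- cells, with 4 arrays each, 16 Clariom S arrays from 8 pools. A pool averages its mice, and the GFP+ and GFP- cells of a pool come from the same animals.

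Odorant receptors are G protein-coupled receptors, and a mature olfactory sensory neuron transcribes 1 allele of 1 receptor gene out of the whole repertoire. Ligand binding activates the olfactory G protein, adenylyl cyclase and a cyclic nucleotide-gated channel, and the resulting activity raises transcription of S100a5, a calcium-binding protein gene. The GFP+ fraction is thus meant to hold neurons with recent activity, and the assay sets each receptor's transcript there against that in GFP- cells. Class I receptors resemble those of fish, while class II receptors make up most of the mammalian repertoire. Receptor genes sit in clusters that arose by local duplication, so that neighbours are often close relatives, which are grouped into MOR families by similarity of sequence.

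By synonym, 29 of the 48 members belong to family MOR204, 6 to MOR268 and 3 to MOR252. MOR101, MOR103 and MOR267 have 2 members each, and MOR104, MOR195, MOR34 and MOR40 have 1 each. The class II name holds for 46 members. Olfr503 (MOR34) and Olfr504 (MOR40) carry family numbers up to 42, which are those of class I receptors, and neither gave a signal above background on any array. The name distal also covers several places: in the order of annotated genes on chromosome 7 (assembly GRCm38.p6) the members form 3 blocks. The first holds the MOR101 genes Olfr520 and Olfr521, and 387 other genes lie between it and the second. The second holds 40 members, Olfr470 to Olfr519, and is followed by 663 other genes. The third holds Olfr522, Olfr523, Olfr524, Olfr530, Olfr533 and Olfr536. For 6 members (Olfr485, Olfr487, Olfr503, Olfr504, Olfr524 and Olfr533) an older synonym ends in P, the mark of a putative pseudogene, although all are now annotated as coding.

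The MOR204 members were compared by their first coding bases. RefSeq windows of 300 bases (GRCm38.p6, 250 before and 50 after the annotated start) were at hand for 45 of the 48 members. In 42 of them base 251 begins the ATG start codon, so the annotated start of these genes is the coding start. For 24 MOR204 members the first 50 coding bases could therefore be compared. Of these, 15 share a common start, differing from the most common bases by 2% to 22% of positions. Up to 12 of a gene's first bases could be skipped for this, but no shift was made in the other direction. The 7 printed here include receptors that were lower, higher or not called in GFP+ cells. Capitals mark bases that differ from the most common base of the 24 genes at that position, without any shift.
Olfr488 (chr7:108256087-108256136, minus strand): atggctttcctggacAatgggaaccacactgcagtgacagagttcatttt
Olfr484 (chr7:108125212-108125261, minus strand): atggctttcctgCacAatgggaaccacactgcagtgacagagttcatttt
Olfr493 (chr7:108346930-108346979, minus strand): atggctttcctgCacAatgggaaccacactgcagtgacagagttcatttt
Olfr495 (chr7:108395122-108395171, plus strand): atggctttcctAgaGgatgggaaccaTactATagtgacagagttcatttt
Olfr487 (chr7:108212478-108212527, minus strand): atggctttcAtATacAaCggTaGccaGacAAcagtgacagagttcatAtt
Olfr494 (chr7:108367492-108367541, plus strand): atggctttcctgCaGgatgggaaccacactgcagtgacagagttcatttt
Olfr490 (chr7:108287075-108287124, minus strand): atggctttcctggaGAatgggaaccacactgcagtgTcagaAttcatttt
The other 9 MOR204 members did not pass the 30% limit by this measure and are called another start here. Olfr485 lies just outside the limit with 31.7% of positions, and the rest differ by 61.5% to 70%. A gene with fewer bases before the shared stretch counts as different by this measure. The printed Olfr491, Olfr476 and Olfr481 carry much of the common sequence at such an offset, and Olfr472 and Olfr473 carry part of it. The limit therefore does not separate an offset from divergence. For these genes the large share of differing positions comes in part from the lack of a shift in the other direction. The 5 printed here were all higher in GFP+ cells.
Olfr481 (chr7:108080796-108080845, plus strand): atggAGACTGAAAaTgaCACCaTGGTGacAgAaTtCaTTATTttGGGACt
Olfr472 (chr7:107902719-107902768, plus strand): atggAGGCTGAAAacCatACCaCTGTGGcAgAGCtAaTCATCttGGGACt
Olfr473 (chr7:107933522-107933571, plus strand): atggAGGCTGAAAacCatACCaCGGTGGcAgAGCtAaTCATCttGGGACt
Olfr491 (chr7:108316896-108316945, plus strand): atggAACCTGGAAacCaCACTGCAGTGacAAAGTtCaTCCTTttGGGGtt
Olfr476 (chr7:107967399-107967448, plus strand): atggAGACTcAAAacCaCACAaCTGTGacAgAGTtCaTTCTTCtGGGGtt
Among the 276 pairs of the 24 genes, the median identity over these 50 bases was 38% (24% to 100%), and 76 pairs reached 90%. Identity was counted position by position without a shift or gap, so a pair with offset starts scores low however alike its genes are. Olfr484 and Olfr493 share all 50 bases, as do Olfr482 and Olfr492. Over the whole 300-base window, counted the same way, no pair exceeded 72.3%. The positions of the array's probes are not known here, so whether a probe set also binds the transcript of a close relative was not tested.

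Olfr536, the member with the largest difference between the fractions, is one of the 3 whose annotated start lies before the coding start. Its window was chosen to be shown from upstream of a transcript start, with capitals marking 2 matches to CCCNNGGG, the core of the Olf1/EBF site. The windows of the others of this kind, Olfr478 and Olfr480, hold no such match, although Olfr478 was also called higher in GFP+ cells in both treatments. Olfr480 was never above background.
Olfr536 (chr7:140507269-140507568, minus strand): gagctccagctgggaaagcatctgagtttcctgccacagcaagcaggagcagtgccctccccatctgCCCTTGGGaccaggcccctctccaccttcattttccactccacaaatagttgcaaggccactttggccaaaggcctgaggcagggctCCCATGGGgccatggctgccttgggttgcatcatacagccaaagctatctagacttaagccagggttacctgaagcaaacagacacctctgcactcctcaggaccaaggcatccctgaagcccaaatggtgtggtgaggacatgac
Searched on both strands, CCCNNGGG occurred in 3 of 45 member windows (Olfr507, Olfr523 and Olfr536; 6.67%), against 3.07% of 944 receptor windows and 13.7% of all 32851 windows. TAATTA, a homeodomain core, was in 7 windows (15.6%), against 18.6% of receptor windows and 5.29% of all windows. TATAAA was in 26 windows (57.8%), against 41.2% and 13.6%. In most of these windows the bases shown precede the coding start and not a mapped transcript start, so a match or its absence describes only these letters.

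Signals were log2 values as deposited, and a probe set counted as above background where it exceeded the highest of 23 background bins of its array, 6.16 to 7.33. By this measure 12 members were above background on all 16 arrays, 25 on some and 11 on none (Olfr474, Olfr480, Olfr485, Olfr486, Olfr492, Olfr503, Olfr504, Olfr507, Olfr512, Olfr513 and Olfr514). An array of GFP+ cells had 28 to 34 members above background, and an array of GFP- cells 17 to 26. Added up on the linear scale and given as log2, the 48 signals came to 16.74 to 17.22 in odor GFP+, 14.94 to 15.26 in odor GFP-, 16.93 to 17.39 in vehicle GFP+ and 14.72 to 15.58 in vehicle GFP- cells. The summed GFP+ and GFP- signals did not overlap in either treatment. For the 29 MOR204 members alone they did, at 14.24 to 15.71, 14.77 to 15.07, 14.55 to 15.55 and 14.57 to 15.38 in the same order of groups. Such a sum follows the brightest probe sets, here Olfr488, which had 14.30 to 14.67 in odor GFP- cells. The mean log2 signals of the same 29 members did not overlap in odor, at 7.63 to 8.69 in GFP+ against 6.37 to 7.29 in GFP- cells. In vehicle they overlapped slightly, at 7.56 to 8.46 against 6.54 to 7.6.

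**Figure D1:**
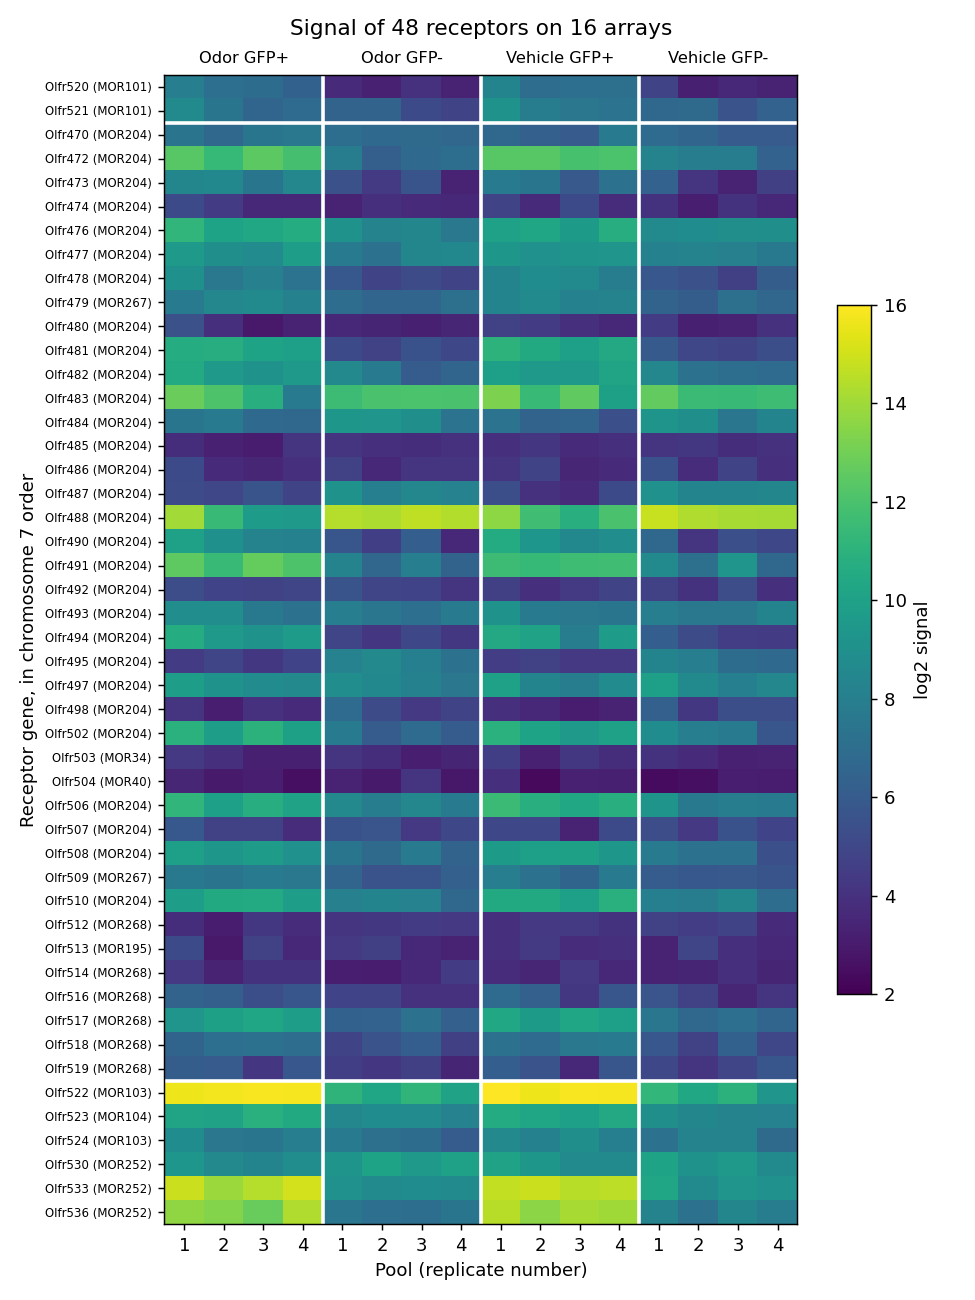
Heat map of the deposited log2 signal (colour) of the 48 receptors, in rows by order on chromosome 7 with the family in brackets, on the 16 arrays in columns; white lines separate the groups and the 3 blocks of genes. Rows are different probe sets and are not comparable in level. Along each row, the GFP+ columns of Olfr522, Olfr533 and Olfr536 are brighter than their GFP- columns, those of Olfr487 and Olfr495 are darker, and 11 rows stay under background throughout.

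The sorted fractions differed as follows outside these receptors. S100a5 averaged 16.72 ± 0.38 in odor GFP+ and 15.11 ± 0.15 in odor GFP- cells, and 16.42 ± 0.41 in vehicle GFP+ and 15.04 ± 0.43 in vehicle GFP- cells (SD, n = 4 each), with limma adjusted p = 9.83e-05 in odor and 0.000514 in vehicle. Omp, the marker of mature olfactory neurons, differed by 0.09 ± 0.14 (SE) in odor and 0.01 ± 0.14 in vehicle, with means of 19.36 to 19.45 near the top of the scale. Of 20 genes of receptor choice, chaperoning and transduction, 1 was higher and 1 lower in odor, and 2 were higher and 1 lower in vehicle. These were Ano2, a chloride channel, higher in both treatments (0.68 in odor and 0.64 in vehicle), Adcy3, the adenylyl cyclase, higher in vehicle (0.50), and Lbr, the lamin B receptor, whose loss in maturing olfactory neurons goes with the gathering of receptor genes in the nucleus, lower in both (-2.18 and -2.06). Of the mature neuron markers 1 of 8 was higher in odor and 2 of 8 in vehicle. Their summed log2 signals overlapped, at 21.44 to 21.55 in odor GFP+, 21.24 to 21.48 in odor GFP-, 21.25 to 21.60 in vehicle GFP+ and 21.25 to 21.45 in vehicle GFP- cells. All 7 immune markers measured were lower in GFP+ cells in both treatments, with sums of 8.42 to 8.93 against 18.74 to 19.05 in odor and 7.88 to 9.66 against 17.37 to 19.67 in vehicle; Ptprc, Csf1r, Itgam and S100a8 were under background in every GFP+ array. Lower in both treatments were also 7 of 8 sustentacular, 5 of 8 immature neuron, 3 of 6 basal cell and 2 of 4 vomeronasal or non-canonical neuron markers, of which Gucy2d and Cnga3 were under background throughout. The sums were 14.05 to 14.87 against 16.01 to 16.31 (odor) and 12.53 to 14.28 against 15.04 to 16.25 (vehicle) for sustentacular markers. They were 14.79 to 15.48 against 15.05 to 15.56 and 14.79 to 15.21 against 15.05 to 15.51 for immature neurons. The mean log2 signals of the same 8 immature neuron markers did not overlap. They were 9.27 to 9.92 against 11.18 to 11.65 in odor and 9.21 to 9.79 against 11.22 to 11.68 in vehicle. For basal cells the sums were 6.57 to 7.48 against 11.0 to 12.29 and 6.99 to 7.21 against 10.77 to 13.41. Of the 6 markers on that list, Krt5, Krt14, Trp63 and Neurog1 were under background on every array. The cell cycle genes Mki67 and Top2a rose above it only in GFP- cells, so the basal cell counts and sums rest largely on these genes. For the vomeronasal or non-canonical list the sums were 12.33 to 13.42 against 13.63 to 14.02 and 12.81 to 13.05 against 13.41 to 15.05. The part of these cells in the receptor differences was not tested. In such bulk samples, fewer neurons that express a receptor and less of its RNA per neuron cannot be told apart.

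The comparison of GFP+ with GFP- cells asks which of these receptors were carried by neurons with the reporter. In odor pools 25 of the 48 members were higher in GFP+ cells, 5 were lower and 18 were not called (limma, Benjamini-Hochberg adjusted p below 0.05 over 22206 probe sets). Of all probe sets measured, 5.29% were called higher and 9.56% lower (14.9% in either direction). In vehicle pools 24 members were higher, 5 lower and 19 not called, against 5.83% and 9.86% of all probe sets (15.7% in either direction). The median difference over the 48 members was 1.37 log2 units in odor and 1.25 in vehicle, against 0.14 over all probe sets in both. Of the other 1032 receptors, 366 (35.5%) were higher and 230 (22.3%) lower in odor, with a median of 0.46. In vehicle 365 (35.4%) were higher and 234 (22.7%) lower, with a median of 0.40. The 48 members thus had a larger share called higher (52.1% in odor and 50% in vehicle) and a smaller share called lower (10.4% in both); this difference between receptor groups was not tested.

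The same 24 members were called higher, and the same 5 lower, in both treatments. The mean differences in odor and in vehicle share no array. The calls do share the estimate of the spread, which was taken from the arrays of both treatments, so they are not independent. In all 8 pools GFP+ lay above GFP- for 25 members (10.9% of all probe sets) and below it for 5 (10.9%). The signals of all 4 GFP+ arrays lay above those of all 4 GFP- arrays for 25 members in odor (9.4% of all probe sets did so) and 23 in vehicle (9.01%). They lay below for 4 (10.6%) and 5 (10%).

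**Figure D2:**
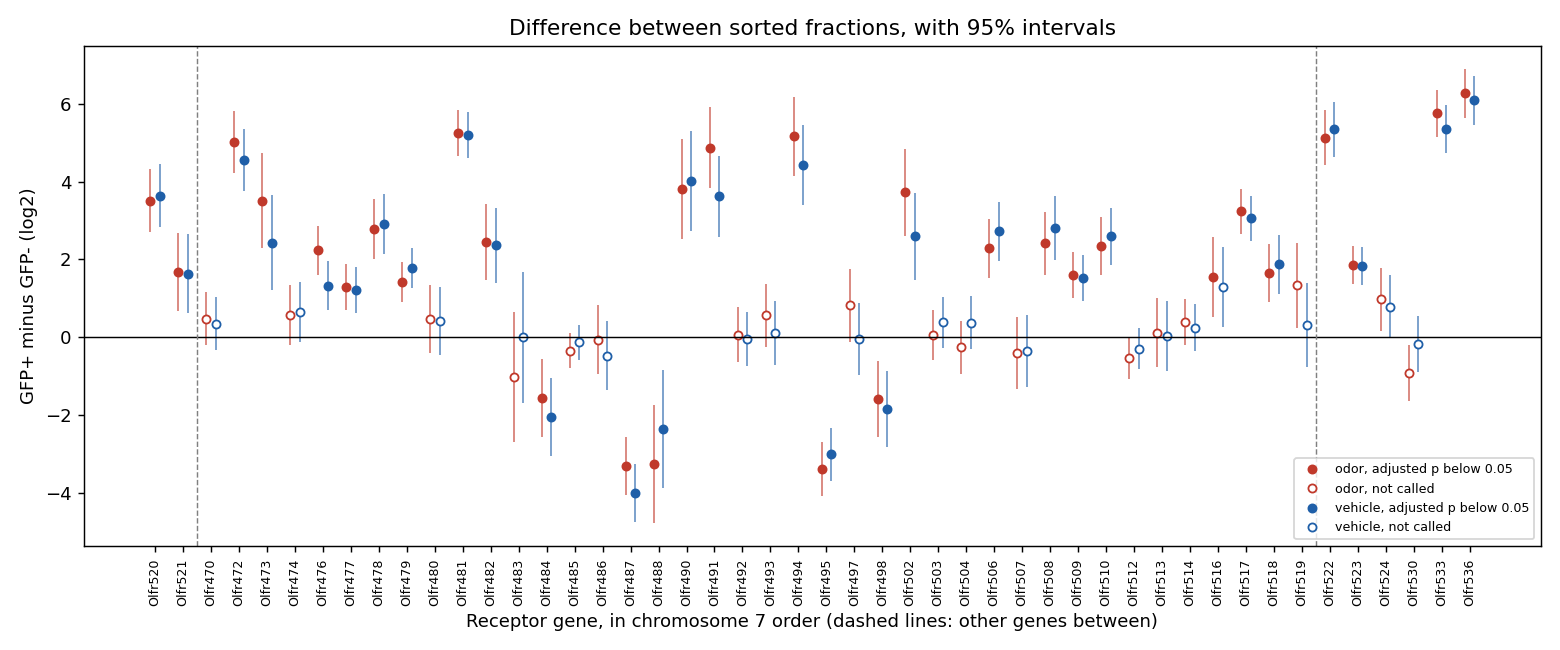
Difference in log2 signal between GFP+ and GFP- cells (vertical axis) for the 48 receptors in chromosome order (horizontal axis), in odor (red, left) and vehicle (blue, right); bars are 95% intervals, filled points were called at adjusted p below 0.05, and dashed lines separate the 3 blocks. The differences run from -3.38 to 6.27 in odor and from -4.00 to 6.09 in vehicle, and all 5 members below 0 that were called lie in the middle block, from Olfr484 to Olfr498.

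In the third block 4 of 6 members were higher in GFP+ cells in both treatments, among them Olfr536 and Olfr533, which had the largest differences of the 48 in each treatment. Olfr536, a MOR252 receptor, had signals of 13.66, 13.42, 12.76 and 14.32 in odor GFP+ cells, against 7.47, 7.13, 7.04 and 7.46 in odor GFP- cells. Vehicle GFP+ cells had 14.49, 13.56, 14.16 and 14.02, against 8.24, 7.30, 8.44 and 7.90 in vehicle GFP- cells. Every GFP+ array was thus far above every GFP- array, which themselves lay above background. The difference was 6.27 ± 0.30 (SE) in odor, a 76.9-fold higher signal (limma adjusted p = 6.19e-11), and 6.09 ± 0.30 in vehicle, 68-fold higher (adjusted p = 9.76e-11).

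Olfr533, also of MOR252, was of the same kind although an older synonym marks it as a putative pseudogene. It had 14.88, 13.88, 14.42 and 15.07 in odor GFP+ cells, against 9.09, 8.71, 8.80 and 8.65 in odor GFP- cells. The vehicle signals were 14.71, 14.89, 14.50 and 14.59 in GFP+ cells, against 10.22, 8.70, 9.30 and 9.06 in GFP- cells. No arrays overlapped, with differences of 5.75 ± 0.29 (53.7-fold, limma adjusted p = 9.07e-11) in odor and 5.35 ± 0.29 (40.8-fold, adjusted p = 2.28e-10) in vehicle. The third MOR252 member, Olfr530, did not share this pattern. Its signals were 9.36, 8.60, 8.34 and 8.88 in odor GFP+ cells, against 9.27, 10.12, 9.50 and 10.02 in odor GFP- cells, and it was above background on all 16 arrays. The vehicle signals were 10.07, 9.40, 8.68 and 8.69 in GFP+ cells, against 10.14, 9.21, 9.50 and 8.65 in GFP- cells, and the groups overlapped in both treatments. Its difference of -0.93 ± 0.34 in odor did not pass (limma adjusted p = 0.0823), nor did -0.17 ± 0.34 in vehicle (0.805). With the pool, which pairs the fractions by their mice, as a block, the odor difference did pass (adjusted p = 0.0429 with a random and 0.0306 with a fixed block).

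Olfr522, of MOR103, had GFP+ signals close together and no overlap between the fractions. It had 15.65, 15.77, 15.85 and 15.83 in odor GFP+ cells, against 11.09, 10.24, 11.16 and 10.09 in odor GFP- cells. In vehicle it had 16.04, 15.67, 15.84 and 15.80 in GFP+ cells, against 11.27, 10.40, 11.02 and 9.29 in GFP- cells. The differences were 5.13 ± 0.34 in odor (35-fold, limma adjusted p = 2.77e-09) and 5.34 ± 0.34 in vehicle (40.6-fold, adjusted p = 1.69e-09). Its family member Olfr524 had 8.81, 7.55, 7.42 and 8.0 in odor GFP+ cells, against 7.70, 7.16, 6.96 and 6.08 in odor GFP- cells, which overlap. It differed by 0.97 ± 0.39 in odor and 0.78 ± 0.39 in vehicle, which did not pass (adjusted p = 0.108 and 0.197; 0.0401 in odor with a fixed block). Olfr523, the MOR104 member, was higher by 1.85 ± 0.23 and 1.84 ± 0.23 (adjusted p = 8.59e-06 and 9.55e-06). Families in this block therefore held members that were called and members that were not.

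In the middle block, the MOR204 receptors spread from called lower to called higher: 14 of 29 were higher, 5 lower and 10 not called in each treatment. Olfr481 had 10.67, 10.74, 10.14 and 9.91 in odor GFP+ cells, against 5.14, 4.76, 5.54 and 5.06 in odor GFP- cells. Vehicle GFP+ cells had 11.05, 10.52, 9.92 and 10.43, against 5.96, 4.97, 4.86 and 5.35 in vehicle GFP- cells. All GFP- arrays lay under background, so the signal was at least 12.6-fold higher in odor and at least 15.2-fold higher in vehicle (limma adjusted p = 2.12e-10 and 2.44e-10).

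Olfr494 was likewise under background in every GFP- array. It had 10.68, 9.52, 9.20 and 9.75 in odor GFP+ cells, against 4.93, 4.24, 5.06 and 4.25 in odor GFP- cells. The vehicle signals were 10.45, 10.09, 7.89 and 9.74 in GFP+ cells, against 6.19, 5.25, 4.53 and 4.46 in GFP- cells. It was at least 8.4-fold higher in odor and at least 7.92-fold higher in vehicle (limma adjusted p = 2.52e-07 and 1.8e-06). Olfr490 had GFP+ signals of 10.02, 9.0, 8.27 and 8.14 in odor, against GFP- signals of 5.77, 4.60, 6.20 and 3.62, and was at least 4.41-fold higher (adjusted p = 0.000141). In vehicle its signals were 10.59, 9.35, 8.51 and 8.86 in GFP+ cells, against 6.71, 4.11, 5.40 and 5.03 in GFP- cells. With 1 of these 4 GFP- arrays above background, its vehicle difference of 4.02 ± 0.61 (adjusted p = 7.89e-05) became 2.77 with the arrays under background raised to it.

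Olfr472 and Olfr473, whose coding starts printed above are 98% identical, were both higher in GFP+ cells. Olfr472 had 12.38, 11.38, 12.47 and 11.85 in odor GFP+ cells, against 7.91, 6.22, 6.81 and 7.04 in odor GFP- cells. In vehicle it had 12.36, 12.35, 11.90 and 12.06 in GFP+ cells, against 8.24, 7.94, 7.88 and 6.41 in GFP- cells. The differences were 5.02 ± 0.38 in odor (limma adjusted p = 1.61e-08; 4.88 with the 1 GFP- array under background raised to it) and 4.55 ± 0.38 in vehicle (adjusted p = 5.85e-08). Olfr473 had 8.42, 8.55, 7.44 and 8.48 in odor GFP+ cells, against 5.49, 4.36, 5.64 and 3.38 in odor GFP- cells, and was at least 2.85-fold higher (adjusted p = 0.0002). In vehicle its GFP+ signals of 7.77, 7.44, 5.89 and 7.26 overlapped the GFP- signals of 6.40, 4.14, 3.41 and 4.67. It was still called there, at least 1.45-fold higher, with 3 of 4 GFP+ arrays above background (adjusted p = 0.00602).

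Olfr491 had 12.53, 11.48, 12.71 and 12.07 in odor GFP+ cells, against 8.24, 6.61, 8.0 and 6.45 in odor GFP- cells. Vehicle GFP+ cells had 11.59, 11.37, 11.65 and 11.71, against 8.63, 7.17, 9.30 and 6.74 in vehicle GFP- cells. All 8 GFP+ signals lay above all 8 GFP- signals. The differences were 4.87 ± 0.49 in odor (limma adjusted p = 6.55e-07; 4.75 with the 2 GFP- arrays under background raised to it) and 3.62 ± 0.49 in vehicle (adjusted p = 2.43e-05). Olfr476 was above background on all arrays, with 11.24, 10.13, 10.42 and 10.65 in odor GFP+ cells, against 9.18, 8.26, 8.40 and 7.62 in odor GFP- cells. The vehicle signals were 10.02, 10.21, 9.65 and 10.71 in GFP+ cells, against 8.63, 8.80, 8.92 and 8.95 in GFP- cells, again with no overlap. It was 4.73-fold higher in odor and 2.5-fold higher in vehicle (adjusted p = 1.97e-05 and 0.00409).

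In the first block both MOR101 members were higher in both treatments. Olfr520 had 7.97, 7.14, 6.97 and 6.34 in odor GFP+ cells, against 3.68, 3.29, 3.99 and 3.42 in odor GFP- cells. The vehicle signals were 8.30, 6.98, 7.13 and 7.19 in GFP+ cells, against 4.89, 3.25, 3.57 and 3.34 in GFP- cells. GFP+ signals lay above background on 3 of 4 arrays in odor and 4 of 4 in vehicle, and no GFP- array did, so the signal was at least 1.31-fold higher in odor and at least 1.79-fold higher in vehicle (limma adjusted p = 1.59e-06 and 1.05e-06). Of the 6 MOR268 receptors, which lie at the end of the middle block, 3 were higher in odor and 2 in vehicle, with differences of -0.54 to 3.24 and -0.29 to 3.06. The third in odor, Olfr516, was under background in all 8 odor arrays, and its difference of 1.55 ± 0.49 (adjusted p = 0.04) comes without a fold; in vehicle it did not pass (1.29, adjusted p = 0.089), except with the pool as a block (0.0375 random and 0.000384 fixed). Both MOR267 members were higher, by 1.42 and 1.60 in odor and by 1.52 and 1.77 in vehicle.

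The 5 receptors that were lower in GFP+ cells all belong to MOR204 and lie among the 13 members from Olfr484 to Olfr498, of which 3 were higher and 5 not called in both treatments. Of the 12 middle-block members before that stretch 8 were higher and none lower in either treatment, and of the 15 after it 8 were higher in odor and 7 in vehicle, none lower. The limits of the stretch were drawn after these values were seen, so the counts describe only where the calls lie. Olfr487 had 5.25, 4.96, 5.64 and 4.87 in odor GFP+ cells, against 9.20, 8.06, 8.49 and 8.22 in odor GFP- cells. In vehicle it had 5.35, 3.97, 3.66 and 5.16 in GFP+ cells, against 9.09, 8.33, 8.31 and 8.41 in GFP- cells. Every GFP+ array lay under background, and the signal was at least 3.4-fold lower in odor and at least 4.23-fold lower in vehicle (limma adjusted p = 1.15e-06 and 1.06e-07).

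Olfr495 was also under background in every GFP+ array. It had 4.46, 4.91, 4.29 and 4.84 in odor GFP+ cells, against 8.20, 8.58, 8.03 and 7.23 in odor GFP- cells. Vehicle GFP+ cells had 4.56, 4.77, 4.31 and 4.32, against 8.32, 7.97, 6.93 and 6.77 in vehicle GFP- cells. It was at least 2.43-fold lower in odor and at least 2.06-fold lower in vehicle (limma adjusted p = 3.61e-07 and 1.59e-06). Olfr484 had 7.46, 7.85, 6.81 and 6.71 in odor GFP+ cells, against 9.40, 9.32, 8.99 and 7.31 in odor GFP- cells, where the groups overlapped. The vehicle signals were 7.31, 6.47, 6.57 and 5.44 in GFP+ cells, against 9.24, 8.97, 7.49 and 8.29 in GFP- cells. Its differences were -1.55 ± 0.48 in odor (adjusted p = 0.0345) and -2.05 ± 0.48 in vehicle (0.00506; -1.73 with the 2 GFP+ arrays under background raised to it). The odor call was lost without odor pool 1, 2 or 3 (adjusted p = 0.131, 0.0848 and 0.169).

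Olfr498 had 4.11, 3.19, 3.99 and 3.68 in odor GFP+ cells, against 6.92, 5.22, 4.32 and 4.85 in odor GFP- cells. In vehicle it had 3.93, 3.55, 3.04 and 3.39 in GFP+ cells, against 6.31, 4.25, 5.38 and 5.32 in GFP- cells. No arrays overlapped in either treatment. The receptor differed by -1.59 ± 0.46 in odor and -1.84 ± 0.46 in vehicle (limma adjusted p = 0.0246 and 0.00892), but 1 of its 16 arrays, odor GFP- pool 1 at 6.92, lay above background, so no fold is given. Its odor call was lost without odor pool 1, 2 or 4 (adjusted p = 0.0789, 0.121 and 0.06) and its vehicle call without vehicle pool 3 (0.0622).

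Olfr488 and Olfr483, both of MOR204 and above background on every array, varied widely among GFP+ arrays and little among GFP- arrays. Olfr488 had 14.05, 11.42, 9.74 and 9.56 in odor GFP+ cells, against 14.44, 14.30, 14.67 and 14.38 in odor GFP- cells. In vehicle it had 13.61, 11.70, 10.77 and 11.96 in GFP+ cells, against 14.85, 14.31, 14.17 and 14.12 in GFP- cells. The SD among 4 arrays was 2.08 in odor GFP+, 0.16 in odor GFP-, 1.18 in vehicle GFP+ and 0.34 in vehicle GFP- cells. All 8 GFP+ signals lay below all 8 GFP- signals, and within a pool the difference ran from -4.92 to -0.38 in odor and from -3.40 to -1.25 in vehicle, pool 1 being nearest to 0 in both. The fitted signal was 9.51-fold lower in odor (-3.25 ± 0.72, limma adjusted p = 0.00346; -4.20 without odor pool 1 and -2.69 without odor pool 3) and 5.12-fold lower in vehicle (-2.35 ± 0.72, 0.032). The vehicle call was lost without vehicle pool 2, 3 or 4 (adjusted p = 0.119, 0.144 and 0.0988), without odor pool 2 (0.0503) and with a trended, robust prior (0.0814).

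Olfr483 had 12.81, 12.07, 10.84 and 7.81 in odor GFP+ cells, against 11.58, 12.00, 12.06 and 11.96 in odor GFP- cells. Vehicle GFP+ cells had 13.25, 11.42, 12.60 and 9.98, against 12.62, 11.52, 11.50 and 11.63 in vehicle GFP- cells. The GFP+ signals thus lay on both sides of the GFP- signals in each treatment, with SDs of 2.20 against 0.22 in odor and 1.44 against 0.54 in vehicle. Its difference was -1.02 ± 0.80 in odor (limma adjusted p = 0.455) and -0.00 ± 0.80 in vehicle (0.999), and within single pools it ran from -4.15 to 1.23 in odor and from -1.65 to 1.11 in vehicle. Pool 4 had the lowest GFP+ signal in both treatments.

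**Figure D3:**
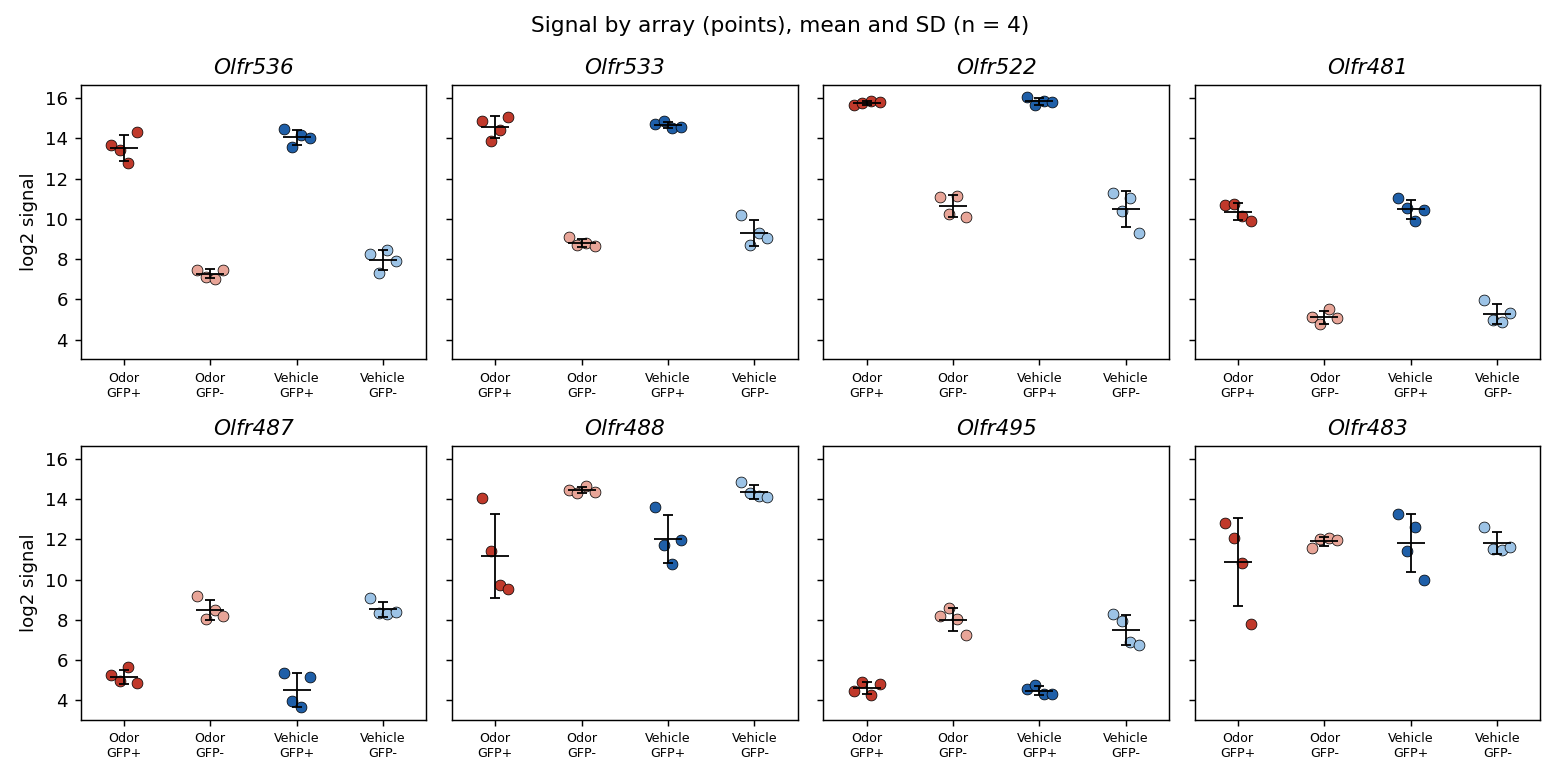
Deposited log2 signal (vertical axis) of 8 receptors in each array (points), with the mean and SD of 4 arrays (lines), in odor GFP+, odor GFP-, vehicle GFP+ and vehicle GFP- cells. Olfr536, Olfr533, Olfr522 and Olfr481 have no overlap between GFP+ and GFP- arrays in either treatment, Olfr487 and Olfr495 have none in the opposite direction, and the GFP+ arrays of Olfr488 and Olfr483 spread over several units while their GFP- arrays stay close together.

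The 18 members called in neither treatment were the 11 never above background and 7 others (Olfr470, Olfr483, Olfr493, Olfr497, Olfr519, Olfr524 and Olfr530). Olfr493, whose first 50 coding bases equal those of Olfr484, had 8.84, 8.86, 7.66 and 7.26 in odor GFP+ cells, against 8.01, 7.52, 7.11 and 7.71 in odor GFP- cells. Its difference of 0.56 ± 0.39 in odor (limma adjusted p = 0.387) and 0.11 ± 0.39 in vehicle (0.887) left it uncalled while Olfr484 was lower. Olfr497 differed by 0.82 ± 0.44 in odor (adjusted p = 0.253), which passed with a fixed block for the pool (0.00582), and by -0.05 ± 0.44 in vehicle. Olfr482 was higher in both treatments, and Olfr492, with the same 50 bases, was never above background. Olfr484 and Olfr494 (96% identical there) were called in opposite directions, as were Olfr488 and Olfr490 (94%). Close similarity at the coding start therefore went with like and unlike calls.

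Split by the coding starts printed above, the 15 MOR204 members with the common start had 5 called higher, 5 lower and 5 not called in each treatment, with median differences of 0.47 in odor and -0.04 in vehicle. The 9 with another start had 7 higher, none lower and 2 not called, Olfr474 and Olfr485, which were never above background; their medians were 2.41 and 2.43. Of the 5 without a comparable start (Olfr478, Olfr480, Olfr483, Olfr486 and Olfr510) 2 were higher and none lower. The split was chosen after the values were seen and is given as a description without a test. It also rests on a shift made only by skipping bases of a gene. Members counted under another start, among them Olfr491, Olfr476 and Olfr481, carry much of the common sequence at an offset. The groups are therefore not groups of relatedness, and the split is not one between different start sequences.

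**Figure D4:**
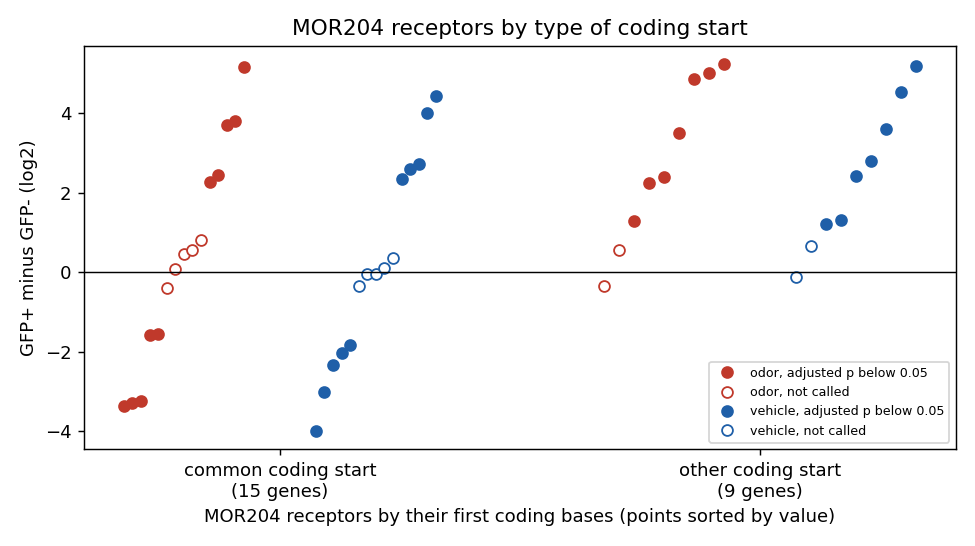
Difference in log2 signal between GFP+ and GFP- cells (vertical axis) of 24 MOR204 receptors, sorted by value within the 15 genes with the common coding start and the 9 with another start, in odor (red) and vehicle (blue); filled points were called at adjusted p below 0.05. All called points below 0 belong to the common start, which also has 5 called points above 0 in each treatment. The groups rest on a shift made only by skipping bases of a gene, so another start includes genes with much of the common sequence at an offset.

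The comparison of odor with vehicle asks whether 2-hexanone changed the amount of a receptor's transcript within a fraction, or its difference between fractions. None of the 48 members was called in GFP+ cells, in GFP- cells or for the change of the sort difference (limma, adjusted p = 1 for each of those named here). Of all probe sets, 0.00901% were called in GFP+ cells, 0% in GFP- cells and 0.00901% for the change. At an unadjusted p below 0.05 there were 0 members in GFP+ cells (3.91% of all probe sets), 1 in GFP- cells (Olfr536; 2.46%) and 1 for the change (Olfr476; 2.93%). For none of the members did the 4 odor arrays lie apart from the 4 vehicle arrays in either fraction, against 2.01% of all probe sets in GFP+ cells (1.01% higher and 1% lower) and 1.77% in GFP- cells (0.941% higher and 0.833% lower). The median difference over the 48 members was -0.09 in GFP+ cells, -0.10 in GFP- cells and 0.07 for the change, against 0.00 over all probe sets in each.

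In GFP+ cells the members' differences between odor and vehicle ran from -0.93 (Olfr483) to 1.14 (Olfr473). The members of lowest unadjusted p were Olfr473 (95% interval -0.08 to 2.35), Olfr487 at 0.65 (-0.09 to 1.38) and Olfr470 at 0.57 (-0.11 to 1.25). Olfr473 and Olfr487 differ in the sort: Olfr473 was higher in GFP+ cells, and Olfr487 was lower and under background there. In GFP- cells the differences ran from -0.87 (Olfr502) to 0.52 (Olfr504). There Olfr536 differed by -0.69 (-1.33 to -0.06), Olfr524 by -0.68 (-1.49 to 0.13) and Olfr533 by -0.50 (-1.11 to 0.10), all of the third block. Leaving out 1 pool at a time, the differences named here ran in GFP+ cells from 0.74 to 1.4 for Olfr473, from 0.35 to 0.92 for Olfr487 and from 0.33 to 0.95 for Olfr470. In GFP- cells they ran from -0.92 to -0.54 for Olfr536, from -0.96 to -0.39 for Olfr524 and from -0.71 to -0.20 for Olfr533. For the change of the sort difference the range was -1.02 (Olfr483) to 1.25 (Olfr491). The members of lowest p there were Olfr476 at 0.92 (0.03 to 1.81), Olfr491 (-0.22 to 2.71) and Olfr530 at -0.77 (-1.79 to 0.26). With 1 pool left out these ran from 0.66 to 1.06, from 0.83 to 1.7 and from -1.11 to -0.57. For Olfr476 the sort difference was 2.24 in odor and 1.32 in vehicle.

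The precision limits what could be seen. The 95% interval of a member's odor difference reached 0.45 to 1.68 log2 units to each side (median 0.77), and that of the change 0.64 to 2.38 (median 1.09). It lay wholly within 1 unit of 0 for 19 members in each fraction and for 8 in the change, so that for the others a change of 1 unit, a doubling or halving of the signal, was not excluded by its interval.

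**Figure D5:**
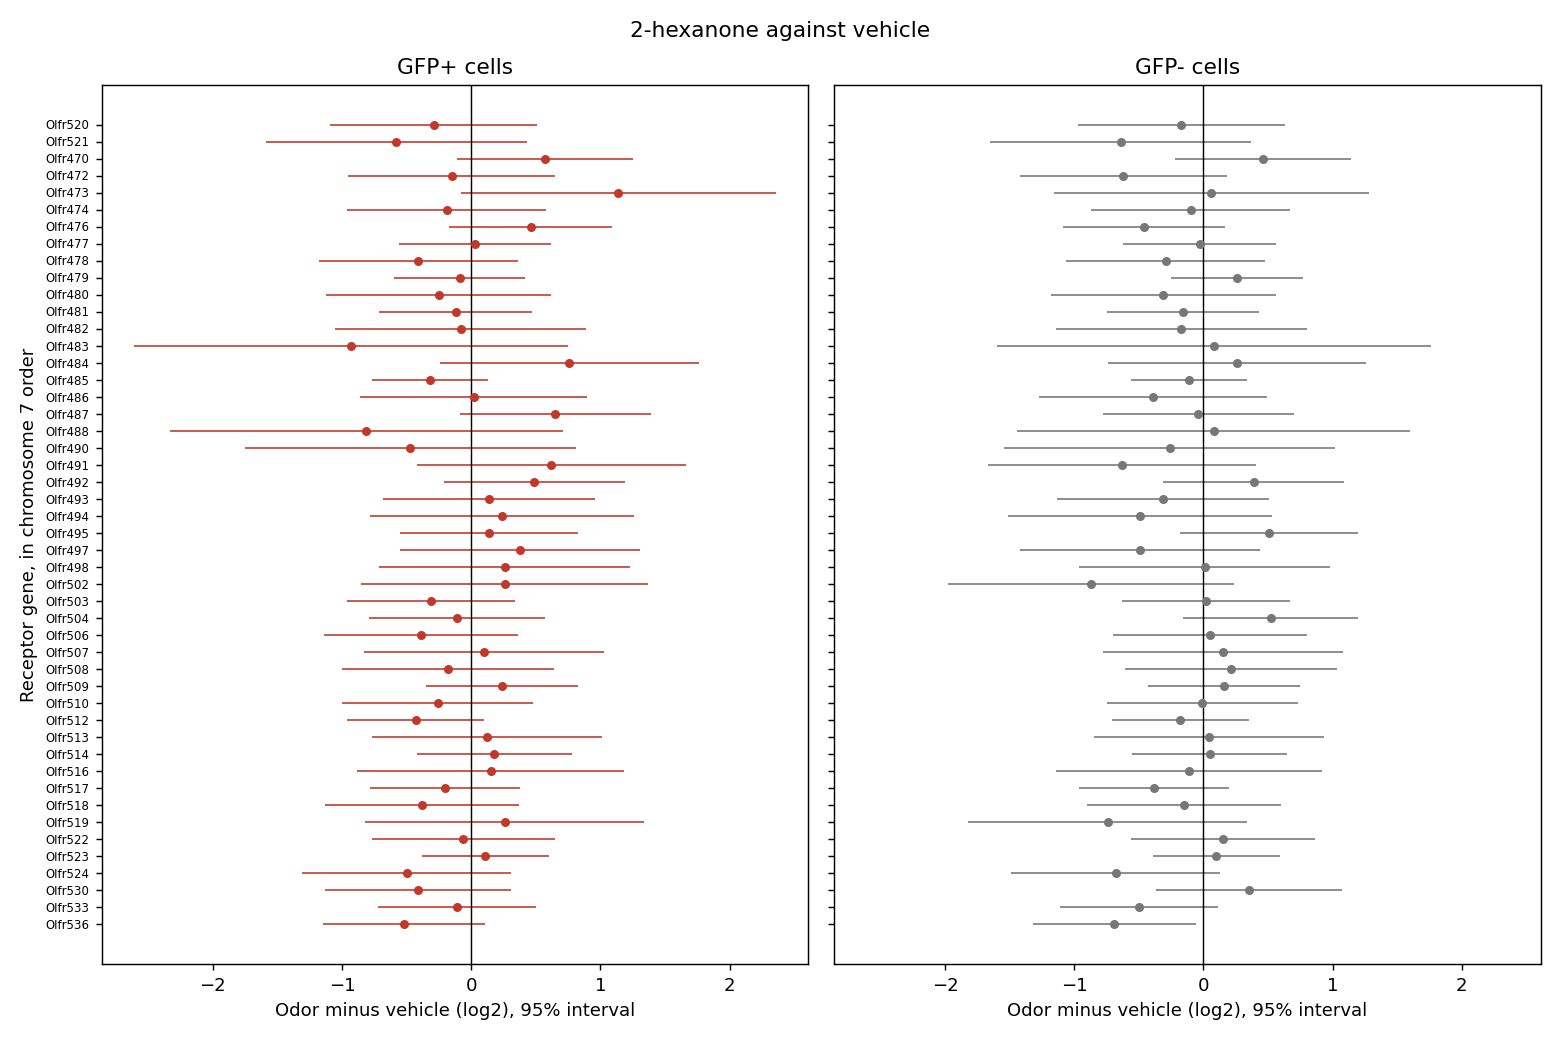
Difference in log2 signal between odor and vehicle (horizontal axis, with 95% intervals) of the 48 receptors in chromosome order (rows), in GFP+ cells (left) and GFP- cells (right). The intervals of all members in GFP+ cells and of all but Olfr536 in GFP- cells include 0, and that of Olfr483 in GFP+ cells is the widest together with that in GFP- cells, since arrays share 1 estimate of the spread.

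Pool 1 stood apart from the other pools in both treatments. Among the 4 arrays of a group, replicate 1 was the highest for 26 of 48 members in odor GFP+, 22 in odor GFP-, 28 in vehicle GFP+ and 29 in vehicle GFP- cells (54.2%, 45.8%, 58.3% and 60.4%), against 29.3%, 27%, 29.6% and 29% of all probe sets. Without both replicate 1 pools, 23 members were higher and 5 lower in odor, and 24 higher and 5 lower in vehicle. The GFP+ arrays had a median over all probe sets of 5.70 to 5.76 and the GFP- arrays one of 6.06 to 6.12.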

How the data were processed

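Biotin-labelled cRNA from 50 to 100 ng of total RNA per sample was hybridised to Clariom S mouse arrays, per the labels' protocols. The authors deposited 1 log2 value per probe set. The submitters' processing notes name Affymetrix Expression Console, without a version; how probes were summarised, and on which genome build, is not given in the sources used. The values run from 1.25 to 19.81. A scanner of 16 bits cannot give the highest of them, so the authors' values had been rescaled in a way that is not stated. Whether that also changed differences and folds was not tested.

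Of 28846 probe sets, 6640 control rows were left out and 22206 tested. The number of arrays limits the precision. No 2 arrays were identical (highest r = 0.986). A linear model with 4 group means was fitted to the 16 arrays in limma 3.58.1 (lmFit, eBayes; R 4.3.3), leaving 12 residual degrees of freedom without covariates. Calls in 5 contrasts were made at a Benjamini-Hochberg adjusted p below 0.05. The fit was also run on simulated data with known differences. Those arrays were drawn independently of each other, so that run does not bear on pairing within pools or on differences between pools. Where all arrays of the dimmer group lay under background, the fold is a bound, taken from the brighter group's mean over that of the dimmer group with each array raised to its background where it lay lower. Plots used Python 3.11.15 and matplotlib 3.10.9.

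Groups and pool numbers came from the sample titles. GFP+ and GFP- cells of a pool share their mice. After subtracting group means, the arrays of a pair correlated at 0.425, 0.0749, 0.161 and 0.109 in odor pools 1 to 4 and at 0.352, 0.0136, 0.0516 and 0.0837 in vehicle pools (consensus 0.171). Odor and vehicle arrays of the same number share no mice. In GFP+ cells they correlated at 0.419, 0.0996, 0.214 and 0.0492 for numbers 1 to 4. In GFP- cells the values were 0.354, 0.0841, 0.031 and 0.214. The part of shared mice in the correlation within a pool was not tested. Alternatives were a block for the pool (random or fixed), a trended robust prior, quantile normalization, centring, array weights, the lowest 20% of probe sets left out, only the arrays compared, and pools left out. For odor against vehicle within a fraction, the fixed block was the replicate number and not the pool. It pairs arrays of different mice by their number.

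The members and gene lists were chosen with earlier results of these data known. Named by rule were the 8 highest and 8 lowest called members per sort contrast, the 3 of lowest p in each other contrast and the 5 of highest mean signal, with S100a5 and Omp. Other members are named in counts, or after their values were seen (Olfr474, Olfr478, Olfr480, Olfr482, Olfr485, Olfr486, Olfr492, Olfr493, Olfr497, Olfr502, Olfr503, Olfr504, Olfr507, Olfr510, Olfr512, Olfr513, Olfr514, Olfr516, Olfr519, Olfr521 and Olfr523). Sequences are from RefSeq (GRCm38.p6).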

Additional observations from a re-analysis of the deposited data

Results flagged for a closer look

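Among 80 groups of 4 arrays (20 named members in 4 groups), 4 held an array far from the other 3 by Dixon's test, where chance alone flags about 1 group in 20. The number flagged does not exceed that share. Olfr520 had 8.30 in vehicle GFP+ replicate 1, against 6.98 to 7.19 in the other 3 arrays. Olfr487 had 9.09 in vehicle GFP- replicate 1, against 8.31 to 8.41. Olfr483 had 12.62 in vehicle GFP- replicate 1, against 11.50 to 11.63. Olfr473 had 7.44 in odor GFP+ replicate 3, against 8.42 to 8.55. In 3 of the 4 groups the outlying array was the highest and came from vehicle pool 1, which was seen afterwards and not tested.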

How the results depend on the processing

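Under 17 alternatives the counts of members higher and lower in each sort contrast stayed within 1.5 times the reported counts, except for 3 lower members without vehicle pool 3 (vehicle) and 3 without odor pool 2 (odor). The counts for odor against vehicle were 0 in each. Leaving out 1 pool at a time gave 23 to 26 higher and 3 to 6 lower members in odor, with a median of 1.22 to 1.5, and 22 to 24 higher and 3 to 5 lower in vehicle, with a median of 1.12 to 1.35. The medians for odor against vehicle were -0.22 to 0.02 in GFP+ cells, -0.17 to 0.06 in GFP- cells and -0.03 to 0.17 for the change. Centring arrays on their medians moved the median of all probe sets to 0.49 in odor and 0.50 in vehicle and that of the members to 1.73 and 1.61. It called 8534 probe sets higher and 1724 lower in odor and 8986 and 1750 in vehicle, against 1175 and 2124 and 1295 and 2189 as reported; quantile normalization gave 1855 and 2010 in odor and 1972 and 2051 in vehicle. With centring 31 members were higher and 5 lower in odor, and 27 and 5 in vehicle. Signs turned for Olfr483 in vehicle, to 0.36 with centring, 0.03 without vehicle pool 2 and 0.54 without vehicle pool 4, for Olfr483 in odor to 0.02 without odor pool 4 (leaving out 1 pool at a time, Olfr483 ran from -0.37 to 0.54 in vehicle and from -1.77 to 0.02 in odor), and for Omp in vehicle to -0.01 and -0.04 without vehicle pools 2 and 4. With centring Omp passed, at 0.44 in odor and 0.37 in vehicle (adjusted p = 0.0196 and 0.0418). The odor call of Olfr484 was also lost without vehicle pool 2 (adjusted p = 0.0501) and without both pools numbered 1 (0.111). Where no construction shows it, the cause was not tested.

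With the pool as a random replicate block 25 members were higher and 6 lower in odor, and 25 and 5 in vehicle; with a fixed block they were 27 and 6, and 25 and 5. The block added calls for Olfr530, Olfr524 and Olfr497 in odor and Olfr516 in vehicle, given with those receptors, and took away none. Members under background have only bounds, and a change of 1 log2 unit with odor was within the 95% interval of most members.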
